A study of Mus musculus with 35 samples.

Results

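Microglia sorted from the cerebellum of adult mice without Il34 were compared with microglia sorted from the forebrain of mice of the same genotype. The 5 libraries, of 35 in the series, were taken by their labels: 2 cerebellar and 3 forebrain libraries of Il34LacZ/LacZ mice, in which a LacZ insertion disrupts Il34 on both alleles, at 9 weeks of age. The reference for the regional difference was given by 5 libraries of Il34wt/wt mice of the same age, 2 from cerebellum and 3 from forebrain. A second reference, from separate mice, was given by 3 cerebellar and 3 forebrain libraries of Csf1fl/fl mice at 9 weeks, which carry a floxed Csf1 and no Cre. A further 7 libraries of NesCreCsf1fl/fl mice at 9 weeks, 3 from cerebellum and 4 from forebrain, in which Cre under Nestin control removes Csf1 from neural cells, entered only an alternative fit of all 23 libraries of this age. The insertion is present in every cell of the mouse, and the sources used here do not say whether cells of several animals were pooled. Libraries of a group are biological replicates by the submitters' own wording.

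Microglia, the resident macrophages of brain tissue, depend throughout life on the receptor CSF1R. This receptor has a pair of ligands, CSF1 and IL-34. In the adult mouse brain IL-34 is made mainly by neurons of the forebrain, whereas the cerebellum relies more on CSF1, so microglia of both regions normally live under different ligands. The comparison asks which of the differences between cerebellar and forebrain microglia are still measured in mice without IL-34.

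The authors deposited 1 table per region, and whole reads were recovered from both, so that all 10 libraries of the Il34 line could be scaled together as CPM, the reads of a gene scaled to the size of its library. The 5 LacZ libraries held 508182 to 802056 reads in table genes, with the cerebellar libraries the shallowest, and the 5 wild-type libraries held 551909 to 901522. Of the 9449 genes usable in the cerebellar table and the 8607 in the forebrain table, 8367 were in both and were tested. The defining microglial genes were abundant in every library: P2ry12, a purinergic receptor, lay between 3632 and 9627 CPM, and Tmem119, a microglial membrane protein, between 1884 and 4312 CPM. The 2 LacZ cerebellar libraries stood apart from each other. Their median absolute log2 difference over genes was 0.441, against 0.272 to 0.343 for the other 7 replicate pairs, and cerebellar replicate 1 had 48 genes at 0 reads against at most 3 in any other library of the line.

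Of the tested genes, 24 differed between regions in LacZ mice at an adjusted p under 0.05 in limma's test, 0.287% of those tested: 15 were higher in cerebellum (0.179%) and 9 in forebrain (0.108%). In all 24, the cerebellar and forebrain libraries did not overlap, but this alone was common, since 10.9% of all genes had both cerebellar libraries above all forebrain libraries and 12.6% had both below. At an unadjusted p under 0.05 there were 775 genes. The count rested on single libraries. Without cerebellar replicate 1 or 2 it was 116 or 140, without LacZ forebrain replicate 1, 2 or 3 it was 10, 8 or 8, without wild-type cerebellar replicate 1 or 2 it was 12 each time, without wild-type forebrain replicate 1 or 2 it was 14 or 11, and without wild-type forebrain replicate 3 it was 31. The calls of Cd74, Ier2, Lpl, Pde2a and Fcrls were kept in all 10 of these fits, and the other 19 calls were each lost in at least 1. Fewer cells of a kind and less RNA per cell cannot be told apart in such bulk libraries.

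Among the called genes, the largest regional difference in mice without Il34 was in a gene of antigen presentation. Cd74, which encodes the invariant chain that chaperones MHC class II molecules, was at 657 and 849 CPM in the 2 LacZ cerebellar libraries and at 22.2, 83.9 and 58.7 CPM in the 3 LacZ forebrain libraries. Every cerebellar library was thus far above every forebrain library. The log2 difference between cerebellum and forebrain was 3.87 ± 0.48 (SE), a 14.7-fold higher level, with an adjusted p of 0.00264. In wild-type mice Cd74 was also higher in cerebellum, at 98.3 and 351 CPM against 18.3, 17.6 and 31.3 CPM in forebrain (log2 difference 2.95 ± 0.48, adjusted p = 0.0117). The wild-type cerebellar libraries, however, differed widely from each other, and the difference between the genotypes' regional effects, 0.93 ± 0.68 on the log2 scale, did not pass the test (adjusted p = 0.967).

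The class II molecules themselves were measured in the cerebellar table but are not in the forebrain table analysed here, where each gene exceeds a value of 10 in all libraries of at least 1 genotype; they were therefore described in cerebellum only, with no regional test. The promoter windows of H2-Aa and H2-Eb1 are shown because both letter runs that were searched for were found in them. H2-Aa (chromosome 17, 34282744 to 34287823) encodes the alpha chain of the class II molecule I-A, and H2-Eb1 (chromosome 17, 34305867 to 34316674) a beta chain of I-E. Each window runs from 250 bases before to 50 bases after the gene's start in RefSeq's annotation of GRCm38.p6, and is at chr17:34287774-34288073 on the minus strand for H2-Aa and at chr17:34305617-34305916 on the plus strand for H2-Eb1. Capitals mark the letters CTGATTGG, those of the Y box of class II promoters, and the letters GCAACT upstream of it.
H2-Aa: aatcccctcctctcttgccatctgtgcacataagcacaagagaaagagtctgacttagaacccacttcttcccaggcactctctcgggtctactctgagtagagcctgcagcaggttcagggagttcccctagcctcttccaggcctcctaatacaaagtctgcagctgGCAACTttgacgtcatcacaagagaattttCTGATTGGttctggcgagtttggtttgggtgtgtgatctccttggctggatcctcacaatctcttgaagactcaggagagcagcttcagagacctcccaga
H2-Eb1: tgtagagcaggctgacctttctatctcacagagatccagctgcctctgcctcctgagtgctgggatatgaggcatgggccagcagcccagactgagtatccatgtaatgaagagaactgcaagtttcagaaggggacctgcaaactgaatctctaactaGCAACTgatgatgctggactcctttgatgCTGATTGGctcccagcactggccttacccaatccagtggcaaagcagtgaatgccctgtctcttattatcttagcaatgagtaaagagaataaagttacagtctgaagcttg
The run CTGATTGG began 51 bases before the start of H2-Aa and 62 before that of H2-Eb1, and GCAACT began 81 and 91 bases before it. Both strands were searched, the runs do not overlap each other, and they were found in 4.1% and 10.9% of the 32851 RefSeq promoter windows of the same length. Of the 7 windows of 6 class II genes searched, these 2 held both runs, that of H2-Oa held CTGATTGG alone, and the 4 of H2-DMa, H2-DMb1 and H2-DMb2 held neither. Cd74 was not among the genes searched, and H2-Ab1 is described by its values only.

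In cerebellum, H2-Ab1, the beta chain of I-A (chromosome 17, 34257689 to 34269419), was at 482 and 1114 CPM in the LacZ libraries and at 128 and 478 CPM in the wild-type libraries. H2-Aa was at 358 and 768 CPM in LacZ and at 57.0 and 343 CPM in wild type. H2-Eb1 was at 238 and 540 CPM in LacZ and at 51.4 and 201 CPM in wild type. For each of the 3 genes the lower LacZ library lay above the higher wild-type library, narrowly so for H2-Ab1 and H2-Aa. How many of all cerebellar genes show this order of the genotypes was not counted, so it is a description only, here and for the genes below. Cd209a, a C-type lectin of dendritic cells and macrophages (chromosome 8, 3743397 to 3748984), was at 93.3 and 161 CPM in the LacZ cerebellar libraries and at 2.23 and 1.5 CPM in the wild-type ones. Of 16 markers of dendritic cells, chosen after values were seen, 7 were in the cerebellar table and 1 in the forebrain table. Such an imbalance held over all genes, with 1082 in the cerebellar table only and 240 in the forebrain table only. Of the 7, 4 had both LacZ libraries above both wild-type libraries: Cd209a, Mgl2, Itgb7 and Plbd1. Genes of the cerebellar table, too, exceed a value of 10 in all libraries of at least 1 genotype. These 4 fell short of that in wild type, so they were listed through their LacZ libraries alone. Their order is therefore no support for a difference between the genotypes. Mgl2, another C-type lectin, was at 49.5 and 34.8 CPM in LacZ against 4.47 and 4.50 CPM in wild type, and Itgb7, an integrin chain, at 38.1 and 42.6 CPM against 2.23 and 18.0 CPM. Plbd1, a phospholipase B-like protein, was at 62.9 and 54.2 CPM in LacZ against 2.23 and 45.0 CPM in wild type. The genotypes overlapped for the transcription factors Zbtb46, at 19.1 and 38.7 against 14.5 and 27.0 CPM, and Batf3, at 30.5 and 15.5 against 19.0 and 15.0 CPM. Ciita, the class II transactivator, went the other way, at 1.90 and 17.4 CPM in LacZ and at 17.9 and 19.5 CPM in wild type, and was listed through wild type alone. The part of such cells in the Cd74 difference was not tested. Outside the surface class II chains, H2-DMa, which helps to load peptides onto class II, was at 339 and 238 CPM in LacZ cerebellum and at 178, 200 and 237 CPM in LacZ forebrain (log2 difference 0.48, adjusted p = 0.434), and B2m, the light chain of class I molecules, had a log2 difference of 0.14 (adjusted p = 0.874).

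**Figure D1:**
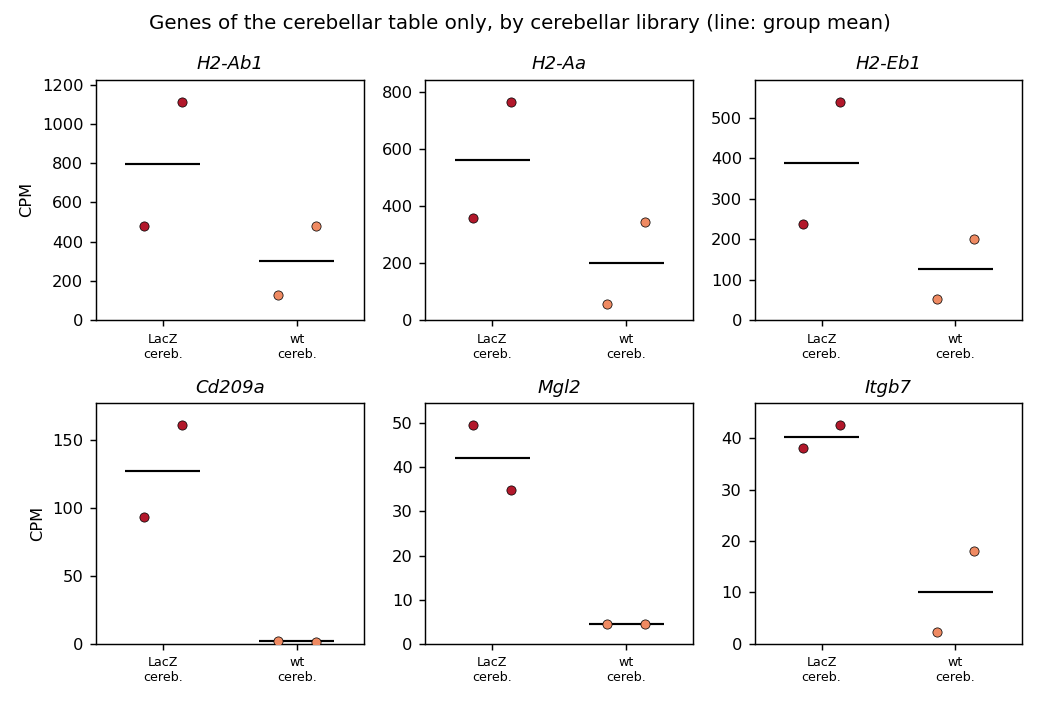
CPM (vertical axes, from 0) of 6 genes, chosen after their values were seen, that are in the cerebellar table only, in each of the 2 LacZ and 2 wild-type cerebellar libraries at 9 weeks; points are libraries and lines are group means. Each gene's LacZ libraries lie above its wild-type libraries, by the widest margin for Cd209a (93.3 and 161 against 2.23 and 1.5 CPM). Cd209a, Mgl2 and Itgb7 are in this table only through their LacZ libraries, so their order is no support for a difference.

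Other genes higher in LacZ cerebellum included Ier2, Lpl, Vim and Ccr1. Ier2, an immediate early gene (chromosome 8, 84661331 to 84662852), was at 457 and 248 CPM in the LacZ cerebellar libraries and at 69.4, 38.2 and 97.0 CPM in the LacZ forebrain libraries. Both cerebellar libraries lay well above every forebrain library, and the log2 difference was 2.35 ± 0.32 (adjusted p = 0.00534). Lpl, lipoprotein lipase (chromosome 8, 68880491 to 68907448), was at 206 and 238 CPM against 69.4, 78.9 and 68.9 CPM, a 2.98-fold separation with little spread in either region (log2 difference 1.58 ± 0.24, adjusted p = 0.00688). In wild type it was lower in both regions, at 86.0 and 74.9 CPM against 34.8, 30.1 and 30.1 CPM, with a regional log2 difference of 1.27. Vim, the intermediate filament vimentin (chromosome 2, 13573927 to 13582826), was at 99.1 and 81.2 CPM in LacZ cerebellum and at 13.9, 26.7 and 16.6 CPM in LacZ forebrain (2.12 ± 0.42, adjusted p = 0.0475). Its wild-type libraries held 20.1 and 39.0 CPM in cerebellum and 5.49, 5.02 and 2.41 CPM in forebrain, a log2 difference of 2.15. Ccr1, a receptor for inflammatory chemokines (chromosome 9, 123962124 to 123968692), was at 51.4 and 67.7 CPM against 11.1, 12.7 and 12.8 CPM (2.04 ± 0.40, adjusted p = 0.047). In wild-type mice Ccr1 did not separate by region, with 46.9 and 19.5 CPM in cerebellum and 22, 36.4 and 28.9 CPM in forebrain. Ccr1 fell short of a value of 10 in LacZ forebrain, so it was listed in the forebrain table through wild type alone. Its forebrain order of the genotypes is therefore no support for a difference. The calls of Vim and Ccr1 were each lost in several of the fits that leave out a library, with adjusted p up to 0.167 and 0.176.

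A further group of genes higher in LacZ cerebellum were set apart by low forebrain values. C1qc, 1 of the 3 chains of complement C1q (chromosome 4, 136889804 to 136893065), was at 3953 and 2541 CPM in LacZ cerebellum and at 1311, 945 and 1328 CPM in LacZ forebrain (log2 difference 1.42 ± 0.29, adjusted p = 0.0478). The other C1q chains, chosen after their values were seen, did not separate by region: C1qa was at 2433 and 1744 CPM against 2195, 2226 and 2397 CPM (-0.14, adjusted p = 0.895), and C1qb had a log2 difference of -0.18 (adjusted p = 0.842). In wild-type forebrain, C1qc was at 2833, 2943 and 1260 CPM, so that replicate 3 alone was as low as the LacZ libraries. Uvrag, a protein of autophagy and endosome traffic (chromosome 7, 98885021 to 99141141), followed the same order, at 139 and 112 CPM in LacZ cerebellum, 27.8, 29.3 and 20.4 CPM in LacZ forebrain, and 97.0, 96.6 and 37.3 CPM in wild-type forebrain (LacZ log2 difference 2.17 ± 0.35, adjusted p = 0.0127). Of the 15 called genes, 11 had the lowest of their 3 wild-type forebrain values in replicate 3, as did 34.5% of all genes: Arhgef1, C1qc, Fam49b, Fbrsl1, Lpl, Micu2, Rac1, Tex10, Uvrag, Vim and Zfand5. For Lpl and Vim, however, all 3 wild-type forebrain values lay below those of LacZ forebrain. Vim fell short of a value of 10 in wild-type forebrain, so it was listed in the forebrain table through LacZ alone. The order of Vim is therefore no support for a difference between the genotypes. The part of the state of wild-type forebrain replicate 3 in the calls was not tested.

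The other genes called higher in LacZ cerebellum have varied roles. Micu2, a regulator of the mitochondrial calcium uniporter (chromosome 14, 57916261 to 57999262), was at 103 and 98.6 CPM against 25.0, 33.1 and 16.6 CPM (1.95 ± 0.32, adjusted p = 0.0131). Fam49b, a regulator of actin that binds the GTPase Rac1 (chromosome 15, 63929097 to 64060478), was at 520 and 497 CPM against 208, 148 and 220 CPM (1.41 ± 0.23, adjusted p = 0.0127). Rac1 itself (chromosome 5, 143503634 to 143528036) was at 678 and 530 CPM against 249, 210 and 300 CPM (1.25 ± 0.23, adjusted p = 0.0306). The LacZ libraries of the regions did not overlap for either gene. In wild type the regional log2 differences were -0.09 for Rac1 and 0.17 for Fam49b. The difference between the genotypes did not pass limma's test for either (adjusted p = 0.898). The call of Rac1 was lost on leaving out any of the 3 LacZ forebrain libraries and in the fit of all 23 libraries of 9 weeks. Fbrsl1 (chromosome 5, 110361754 to 110448503), Tex10 (chromosome 4, 48430858 to 48473459) and the zinc finger gene Zfp948 (chromosome 17, 21567008 to 21588699) had LacZ log2 differences of 1.99, 1.42 and 2.24. Arhgef1, a guanine nucleotide exchange factor (chromosome 7, 24902912 to 24926594), and Zfand5, a zinc finger protein (chromosome 19, 21272278 to 21286840), both named after their values were seen, were at 1.22 and 1.12. Lamp1, a lysosomal membrane glycoprotein, and Spi1, the gene of the transcription factor PU.1 of myeloid cells, showed the order of libraries seen for C1qc without passing the test. Lamp1 was at 1101 and 948 CPM in LacZ cerebellum, 539, 240 and 453 CPM in LacZ forebrain, and 815, 748 and 320 CPM in wild-type forebrain (LacZ log2 difference 1.39, adjusted p = 0.116). Spi1 had a LacZ log2 difference of 1.18 (adjusted p = 0.265).

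**Figure D2:**
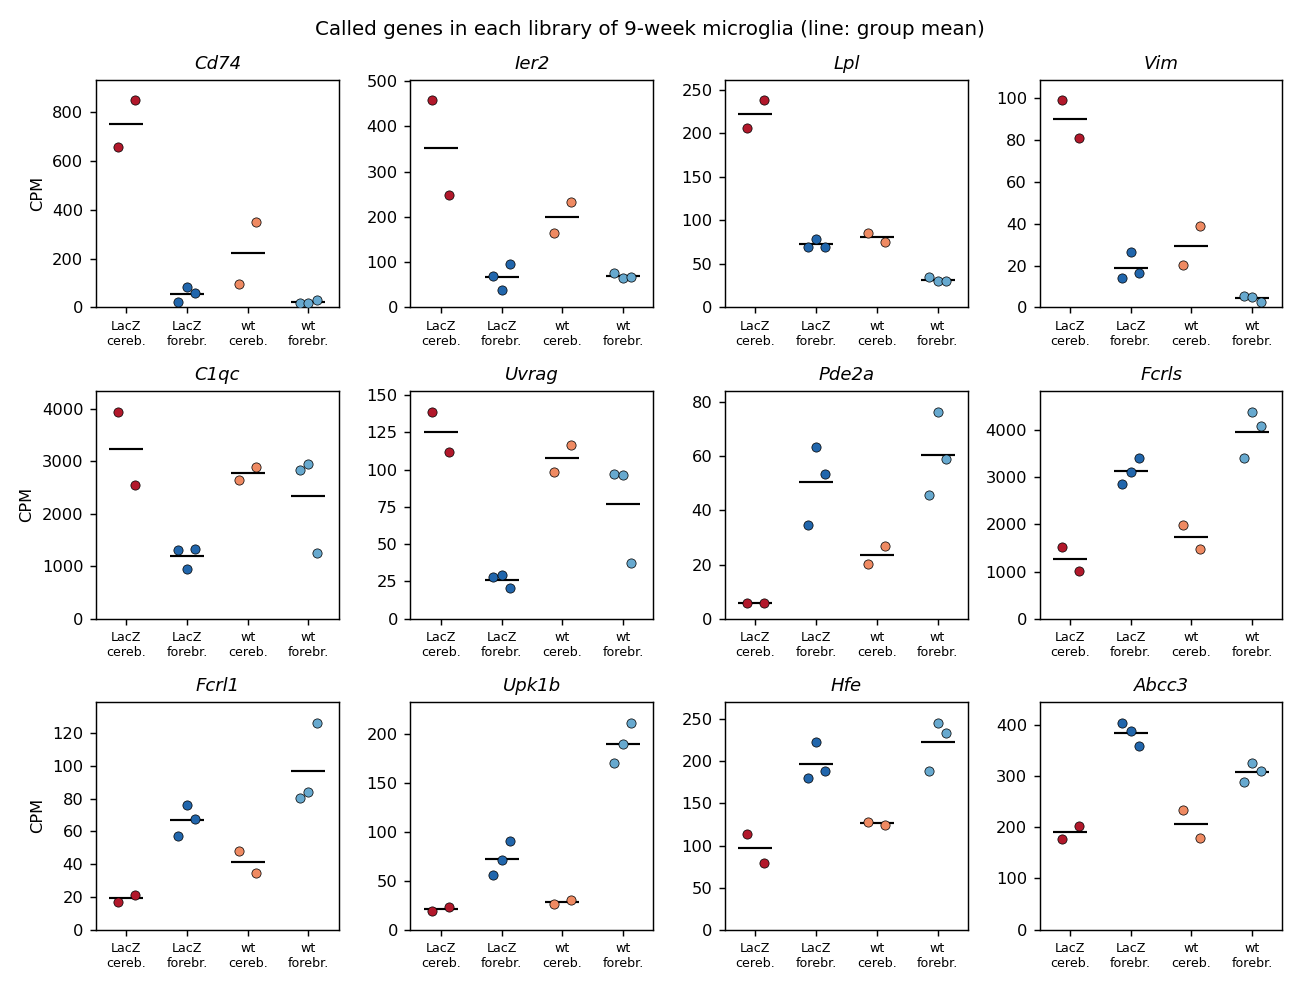
CPM (vertical axes, from 0) of 6 genes called higher in LacZ cerebellum and 6 called higher in LacZ forebrain, in each of the 10 libraries of the Il34 line at 9 weeks; points are libraries and lines are group means. The LacZ cerebellar and forebrain libraries of each gene do not overlap, and the wild-type forebrain libraries of C1qc and Uvrag split, with replicate 3 at 1260 and 37.3 CPM.

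The 9 genes higher in LacZ forebrain included a pair of receptors of the Fc receptor-like family. Fcrls, an Fc receptor-like molecule typical of microglia (chromosome 3, 87250758 to 87263738), was at 1516 and 1006 CPM in LacZ cerebellum and at 2856, 3125 and 3415 CPM in LacZ forebrain. Both cerebellar libraries were thus far below each forebrain library (log2 difference -1.34 ± 0.19, adjusted p = 0.00534). In wild type Fcrls was at 1997 and 1484 CPM against 3406, 4399 and 4097 CPM, a similar regional difference (-1.19 ± 0.19, adjusted p = 0.0117). Fcrl1, a relative known from B cells (chromosome 3, 87376387 to 87402934), was at 17.1 and 21.3 CPM against 56.9, 76.3 and 67.6 CPM (-1.66 ± 0.30, adjusted p = 0.0278). Upk1b, a uroplakin of the tetraspanin family (chromosome 16, 38773184 to 38800328), was at 19.1 and 23.2 CPM in LacZ cerebellum and at 55.5, 71.2 and 90.6 CPM in LacZ forebrain (-1.63 ± 0.27, adjusted p = 0.0139). In wild type it was at 26.8 and 30.0 CPM against 170, 190 and 212 CPM, the smallest adjusted p of the wild-type comparison (-2.63 ± 0.27, adjusted p = 0.000227). The cerebellar level of Upk1b was thus low in both genotypes, and all 3 LacZ forebrain libraries lay below all 3 wild-type forebrain libraries.

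The called gene with the largest forebrain excess was Pde2a, a phosphodiesterase that breaks down cyclic nucleotides (chromosome 7, 101421691 to 101512827). It was at 5.71 and 5.80 CPM in LacZ cerebellum and at 34.7, 63.6 and 53.6 CPM in LacZ forebrain, a log2 difference of -2.60 ± 0.37 (adjusted p = 0.00534). In wild type it was at 20.1 and 27.0 CPM against 45.8, 76.6 and 59.0 CPM, also without overlap (-1.25, adjusted p = 0.282). In LacZ cerebellum Pde2a fell short of a value of 10, so it was listed in the cerebellar table through wild type alone. Its lower cerebellar level in LacZ is therefore no support for a difference between the genotypes. Lilra5, a leukocyte immunoglobulin-like receptor (chromosome 7, 4237754 to 4243463), was at 20.9 and 29.0 CPM against 68.0, 95.4 and 85.5 CPM in LacZ (-1.63 ± 0.32, adjusted p = 0.047) and at 38.0 and 40.5 against 32.9, 48.9 and 30.1 CPM in wild type. Fam115a was at 7.62 and 5.80 CPM against 31.9, 33.1 and 30.6 CPM in LacZ (-1.87 ± 0.38, adjusted p = 0.0478), and at 23.4 and 16.5 against 14.6, 18.8 and 13.2 CPM in wild type. Like Pde2a, Fam115a was listed in the cerebellar table through wild type alone. Its cerebellar order of the genotypes is thus no support for a difference either. Lilra5, Fam115a and Rac1 were the LacZ calls whose wild-type difference had the opposite sign. Hfe, the haemochromatosis protein of iron homeostasis (chromosome 13, 23702034 to 23710854), Abcc3, an ATP-binding cassette transporter (chromosome 11, 94343295 to 94392997), and Tspan13, a tetraspanin (chromosome 12, 36014557 to 36042500), were higher in LacZ forebrain by smaller steps. Hfe was at 114 and 79.3 CPM against 181, 223 and 189 CPM (-1.02 ± 0.21, adjusted p = 0.0478). Abcc3 was at 177 and 203 CPM against 404, 388 and 359 CPM (-1.0 ± 0.17, adjusted p = 0.0146). Tspan13 had a log2 difference of -0.82 ± 0.17 (adjusted p = 0.0478). Among the fits that leave out a library, the calls of Fam115a, Hfe and Tspan13 held only without LacZ cerebellar replicate 1.

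The regional differences of wild-type mice were then followed into the mice without Il34. In wild type, 27 genes passed the test (0.323% of those tested), 18 higher in cerebellum (0.215%) and 9 higher in forebrain (0.108%). Of these, 5 were also called in LacZ mice, in the same direction: Cd74, Vim, Lpl, Upk1b and Fcrls. Leaving out 1 library made this shared count 1 to 17, the highest without LacZ cerebellar replicate 1. The 5 made up 18.5% of the wild-type calls and 20.8% of the LacZ calls. All 27 had the same direction in LacZ mice, as did 55.5% of all genes, and for 23 of the 27 the LacZ cerebellar and forebrain libraries did not overlap, as was the case above for 10.9% and below for 12.6% of all genes. The size was mostly smaller: 24 of the 27 had a smaller difference in LacZ. For the 18 higher in cerebellum the median log2 difference was 1.73 in wild type, where they were chosen, and 0.85 in LacZ; for the 9 higher in forebrain it was -1.17 and -0.67. These genes were chosen on their wild-type values, which are therefore large by choice. The LacZ calls, chosen on their LacZ values, were in turn smaller in wild type. Their medians in LacZ and wild type were 1.95 and 0.50 for those higher in cerebellum, and -1.63 and -0.79 for those higher in forebrain. The wild-type count itself ranged from 1 to 61 when 1 of the 10 libraries was left out: it was 1 without wild-type cerebellar replicate 2, 8 without replicate 1, 13, 6 or 12 without wild-type forebrain replicate 1, 2 or 3, 13, 13 or 10 without LacZ forebrain replicate 1, 2 or 3, and 55 or 61 without LacZ cerebellar replicate 1 or 2.

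The 22 wild-type calls that were not called in LacZ mice included Axl, Clec7a and Apoe, which are known to rise in activated microglia. Axl, a receptor tyrosine kinase that binds apoptotic cells, was at 107 and 170 CPM in LacZ cerebellum and at 36.1, 43.2 and 57.4 CPM in LacZ forebrain (log2 difference 1.53, adjusted p = 0.0712), against 72.6 and 133 and 18.3, 21.3 and 24.1 CPM in wild type (2.08, adjusted p = 0.0117). Clec7a, the receptor dectin-1, had log2 differences of 0.98 in LacZ (adjusted p = 0.291) and 1.80 in wild type (adjusted p = 0.0206). Both genes kept their cerebellar libraries above all forebrain libraries in LacZ mice. Apoe, apolipoprotein E (chromosome 7, 19696109 to 19699188), did not: it was at 1356 and 1418 CPM in LacZ cerebellum and at 1341, 1329 and 1367 CPM in LacZ forebrain (0.04 ± 0.22, adjusted p = 0.976). In wild type Apoe was at 1051 and 1628 CPM in cerebellum and at 405, 563 and 747 CPM in forebrain (1.23 ± 0.22, adjusted p = 0.0206). All 3 LacZ forebrain libraries thus lay above all 3 wild-type forebrain libraries, at the level of the cerebellum. H2-K1, a class I heavy chain, was at 413 and 311 CPM against 287, 324 and 341 CPM in LacZ (0.18, adjusted p = 0.876) and at 340 and 501 against 165, 173 and 227 CPM in wild type (1.13, adjusted p = 0.0246). Ptchd1, a patched-domain membrane protein, Myo5a, a myosin motor, and the noncoding RNA Neat1 had wild-type log2 differences of 1.62, 2.23 and 1.77 and LacZ differences of 0.46, 0.91 and 0.78. Nfkbia, an inhibitor of NF-kappaB, had 1.08 in wild type and 0.60 in LacZ.

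On the forebrain side, Slc2a5, a fructose transporter typical of microglia, was at 381 and 269 CPM in LacZ cerebellum against 430, 565 and 528 CPM in LacZ forebrain (-0.65, adjusted p = 0.238), and at 412 and 333 against 743, 993 and 794 CPM in wild type (-1.17, adjusted p = 0.0117). Abcg1, a cholesterol exporter, had nearly the same difference in both genotypes (-0.70 in LacZ, adjusted p = 0.0744, and -0.84 in wild type, adjusted p = 0.0285). The related exporter Abca1, chosen after its values were seen, was at 301 and 319 CPM against 518, 565 and 591 CPM in LacZ (-0.84, adjusted p = 0.0744). Gal3st4, a sulfotransferase, and Fchsd2, a membrane-bending protein, had LacZ log2 differences of -0.73 and -0.49 and wild-type differences of -0.95 and -0.93. For each of these genes the LacZ libraries of the 2 regions did not overlap.

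**Figure D3:**
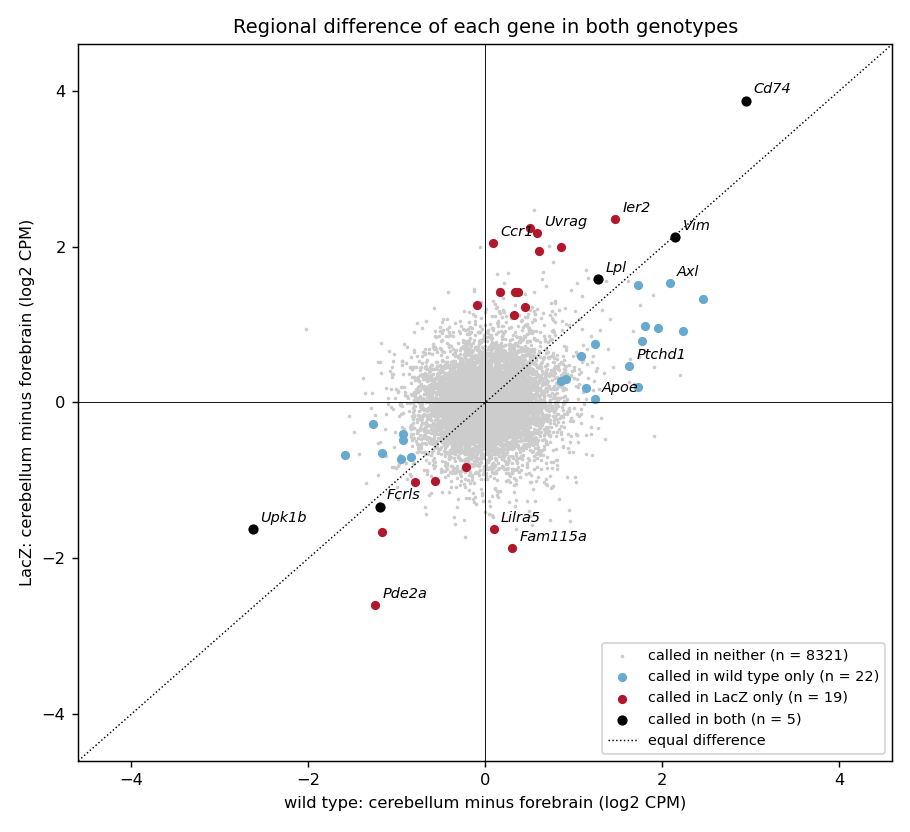
Each point is 1 of the 8367 genes: its cerebellum minus forebrain difference in log2 CPM in wild type (horizontal axis) and in LacZ mice (vertical axis), coloured by the limma calls in each genotype; the dotted line marks equal differences. All 27 genes called in wild type lie on the same side of 0 in LacZ, while Ccr1, Lilra5 and Fam115a lie near 0 on the wild-type axis.

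No gene's regional difference differed between LacZ and wild-type mice past the threshold in limma's test of that difference (0% of those tested; smallest adjusted p = 0.898; 427 genes at an unadjusted p under 0.05), nor with edgeR, DESeq2 or voom. A call made in 1 genotype and not in the other is therefore not shown to differ. This count was 0 in 9 of the 10 fits that leave out a library, and 53 without LacZ cerebellar replicate 2. The smallest p values for a larger cerebellar excess in LacZ were those of Kdm1b, Rac1 and Fam49b, with differences between the genotypes of 1.60, 1.35 and 1.25 on the log2 scale. Kdm1b, a histone demethylase (chromosome 13, 47043499 to 47085279), was at 97.2 and 101 CPM in LacZ cerebellum, 56.9, 57.2 and 63.8 CPM in LacZ forebrain, 50.3 and 49.5 CPM in wild-type cerebellum and 91.5, 87.8 and 106 CPM in wild-type forebrain. Its regional order was thus reversed between the genotypes, with no overlap in either. In the other direction stood Trmt12, a tRNA-modifying enzyme, Fam115a and Cadm1, a cell adhesion molecule, with -2.24, -2.17 and -1.03. Fam115a was in the cerebellar table through wild type alone, so its value is no support for a difference. Cadm1 (chromosome 9, 47530173 to 47857637) was at 173 and 191 CPM in LacZ cerebellum and 271, 312 and 323 CPM in LacZ forebrain, against 248 and 225 and 194, 174 and 202 CPM in wild type. When all 23 libraries of 9 weeks, those of NesCreCsf1fl/fl mice included, entered 1 fit, Kdm1b was the single call (1.61, adjusted p = 0.0419).

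The Csf1fl/fl mice gave a reference from separate libraries, chosen as a comparison after the data were seen. In a fit of their 6 libraries alone, 39 genes were higher in cerebellum and 39 in forebrain (0.487% of 8005 genes each). In LacZ mice 36 of the first 39 (92.3%) and 38 of the second 39 (97.4%) had the same direction, as did 56.7% of all genes. Their median log2 differences were 1.36 in Csf1fl/fl, where they were chosen, and 0.56 in LacZ for genes higher in cerebellum, and -1.06 and -0.69 for genes higher in forebrain. Called in LacZ too were Cd74, Ier2, Lpl and Vim among the former and Abcc3, Fcrl1, Fcrls and Upk1b among the latter. Cd74 had a log2 difference of 2.21 in Csf1fl/fl (adjusted p = 0.0215), and Upk1b one of -2.90.

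For the receptor CSF1R and its ligand CSF1, no regional difference passed the test. Csf1r was at 13260 and 9659 CPM in LacZ cerebellum and at 11800, 13400 and 13400 CPM in LacZ forebrain (log2 difference -0.18 ± 0.20, adjusted p = 0.867; -0.21 in wild type). Csf1 transcripts were at 26.7 and 29.0 CPM in LacZ cerebellum and 23.6, 33.1 and 33.2 CPM in LacZ forebrain (-0.08 ± 0.40, adjusted p = 0.976). The wild-type Csf1 values, 16.7 and 15.0 CPM in cerebellum and 16.5, 16.3 and 7.22 CPM in forebrain, were all below those of LacZ. Il34 itself is not in either table analysed here, so the targeted gene gave no check of the labels.

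Gene lists were described by their counts and medians beside those of all genes, of which 4019 had a positive and 4348 a negative LacZ difference with a median of -0.02. Of 35 genes of homeostatic microglia, 28 were lower in LacZ cerebellum than in forebrain, with a median log2 difference of -0.26 in LacZ and -0.40 in wild type, and 16 had both cerebellar libraries below all forebrain libraries, as did 12.6% of all genes. Of the list 1 gene, Fcrls, was called. P2ry12 was at 5233 and 3632 CPM in cerebellum and at 5717, 6566 and 5961 CPM in forebrain (-0.48, adjusted p = 0.402), and Tmem119 at 2652 and 1884 CPM against 3049, 3228 and 3263 CPM (-0.51, adjusted p = 0.289). Cx3cr1, the fractalkine receptor, had a difference of -0.30. Cerebellar replicate 2 was the lower of the pair for all 3. Without it the list's median was -0.11, with 22 of 35 negative, and without replicate 1 it was -0.46, with 33 of 35 negative. Lysosomal genes showed 30 of 38 negative (median -0.24; Ctsd, a cathepsin, -0.42) and phagocytic and clearance receptors 23 of 30 (median -0.21; Stab1, a scavenger receptor, -0.73, adjusted p = 0.0769), with no call in either list. Without cerebellar replicate 2 their medians were -0.14 and -0.09. The phagocytic receptor Trem2 had a log2 difference of -0.19 (adjusted p = 0.827).

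Interferon-stimulated genes went the other way. Of 22 tested, 19 had a positive LacZ difference, with a median of 0.38 (0.50 in wild type); 9 had both cerebellar libraries above all forebrain libraries, as did 10.9% of all genes, and none was called. Ifit2, an interferon-induced protein (chromosome 19, 34550694 to 34576419), was at 109 and 73.5 CPM in LacZ cerebellum and at 22.2, 16.5 and 35.7 CPM in LacZ forebrain (1.80 ± 0.38, adjusted p = 0.06). Oasl2, a member of the oligoadenylate synthetase-like family, had a difference of 1.32 (adjusted p = 0.397). A further 9 members of the list were in the cerebellar table and not in the forebrain table analysed here, as were 1082 genes in all. None was in the forebrain table only, as were 240 genes in all. Without cerebellar replicate 1 or 2 the median of the 22 was 0.39 or 0.58. Across the 27 lists the LacZ medians ran from -0.34, for markers of border-associated macrophages, to 0.38, for the interferon list. Which lists stood at the ends depended on the LacZ cerebellar libraries, though the interferon median was no lower without either of them. Without replicate 1 the median of the border-associated list was -0.0425. The medians then ran from -0.99 (endothelial and pericyte markers) to 0.95 (the 1 tested forebrain neuron marker). Without replicate 2 the border-associated median was -0.17, and the medians ran from -0.85 (neutrophil markers) to 0.58 (the interferon list). Of the lists, 6 held 1 called gene each and none held more. Disease-associated genes were split, with 12 positive and 13 negative and a median of -0.08, against 0.19 in wild type.

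**Figure D4:**
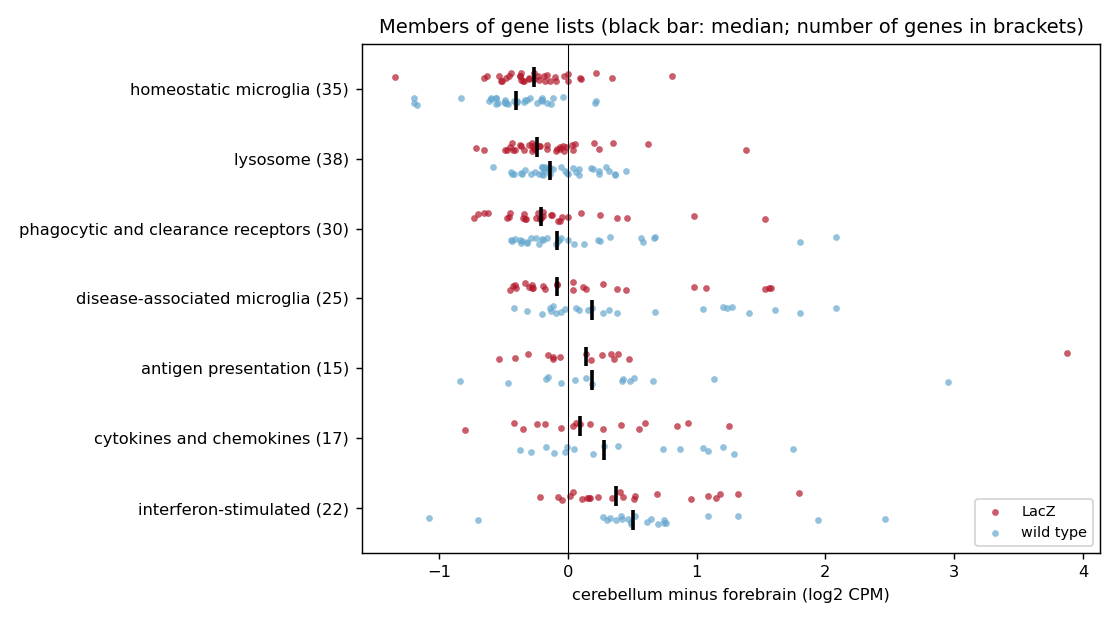
Cerebellum minus forebrain difference in log2 CPM (horizontal axis) of each tested member of 7 gene lists, in LacZ and in wild type; points are genes and black bars are medians. Members of the homeostatic list lie mostly below 0 (28 of 35 in LacZ) and those of the interferon list mostly above it (19 of 22).

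Markers of other cell types were also read. Of 19 monocyte markers, 4 were tested and 4 more were in the cerebellar table only; their summed level was 230 to 646 CPM in LacZ cerebellum and 259 to 299 CPM in LacZ forebrain. Of the 4, 1 had a positive and 3 a negative LacZ difference, with a median of -0.15 (0.47 and -0.17 without cerebellar replicate 1 or 2). The negative ones were Itga4, Gngt2 and Thbs1, at -0.16, -0.13 and -0.54, with adjusted p of 0.961, 0.949 and 0.79. The positive one, Ccr2, the chemokine receptor of monocytes and chosen after its values were seen, was at 109 and 201 CPM in LacZ cerebellum and at 13.9, 52.1 and 19.1 CPM in LacZ forebrain (log2 difference 2.47 ± 0.65, adjusted p = 0.153), against 10.1 and 94.4 and 18.3, 31.4 and 16.8 CPM in wild type. Its highest libraries in each cerebellar group are also the highest for Cd74 and for the class II genes. Outside that list, Lyz2, lysozyme of myeloid cells, was at 331 and 201 CPM against 124, 150 and 95.7 CPM in LacZ (1.07, adjusted p = 0.279), and Cybb, a subunit of the phagocyte oxidase, at 95.2 and 110 CPM against 26.4, 45.8 and 29.4 CPM (1.56, adjusted p = 0.0855). Of 20 markers of border-associated macrophages, 7 were tested, with a summed level of 1389 to 1613 CPM in LacZ cerebellum and 1516 to 1744 CPM in LacZ forebrain. Lyz2, Dab2 and Tgfbi had positive LacZ differences (1.07, 0.68 and 1.13) and Mrc1, Stab1, Maf and Ap2a2 negative ones (-0.35, -0.73, -0.34 and -0.37), none of them past the test. The summed level of 5 tested oligodendrocyte markers was 1876 to 2951 CPM in LacZ cerebellum and 2224 to 2325 CPM in LacZ forebrain. The summed level of 5 tested markers of cerebellar neurons was 189 to 257 CPM in LacZ cerebellum and 181 to 191 CPM in LacZ forebrain, and that of 4 astrocyte markers 379 to 468 CPM and 453 to 513 CPM. The part of these cells in the regional differences was not tested.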

How the data were processed

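The authors sorted microglia, sequenced ultra-low-input libraries and, per the submitters' processing notes, used STAR 2.5.3 and featureCounts with mm10; the sources used here do not give the strand setting or the normalization. The deposited values are a normalized signal per gene, 1 table per region. After subtracting a constant of 0.1, 100% of values in each column were whole multiples of 1 step (tolerance 0.01 reads). Recovered reads were scaled with TMM over the 8367 shared genes, leaving out 15 to 17 names per table that were duplicated or had the form of dates. The main test was limma-trend (limma 3.58.1, R 4.3.3; log2 CPM, prior count 2) over 10 libraries in 4 groups, two-sided, Benjamini-Hochberg adjusted over all genes; count models on the recovered reads were alternatives. The design had foreseen limma for values that are not counts. With 2 and 3 libraries, differences are precise only to the standard errors given.

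Members and gene lists were chosen with earlier results of these data known. Named genes were called, had an average log2 CPM of at least 4, did not overlap between regions and were the 12 largest per direction, without predicted or ribosomal genes; lists contributed called or highly expressed members, and Ifit2, Tmem119, Cx3cr1, Lamp1, Spi1, Lyz2, Cybb, B2m, H2-DMa, Ccl2 and Lag3 were named after their values were seen. The labels name no batch, so region and any batch cannot be told apart. Coordinates are those of GENCODE vM21 (GRCm38, the assembly of mm10), which held 95.6% of the symbols. Some members of the lists are not reported here by name.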

Additional observations from a re-analysis of the deposited data

How the results depend on the processing

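The count of 24 LacZ calls stayed within 1.5 times under the scaling, pseudocount and guanine-cytosine (GC) settings, though 9 rather than 15 were higher in cerebellum after a GC correction chosen after seeing the data. It was 24 with edgeR on the recovered reads (5 higher in forebrain), 42 with DESeq2 (29 higher in cerebellum), 14 with voom and quality weights (1 higher in forebrain), 4 with the 5 LacZ libraries alone (4 and 0), and 127 with all 23 libraries of 9 weeks (57 and 70). The wild-type count was 43, 58 and 95 with DESeq2, voom and 23 libraries, and the calls shared by both genotypes were 8, 11 and 25 with edgeR, DESeq2 and 23 libraries. Differences between genotypes were 1 with 23 libraries and 4 with the controls of both lines averaged (C3ar1, C5ar1, Cadm1 and Kdm1b). Leaving out each library gave 8 to 140 LacZ calls, 6 to 39 higher in cerebellum, 2 to 101 higher in forebrain, 1 to 61 wild-type calls, 1 to 17 shared and 0 to 53 differences between genotypes. The causes were not tested. No filter and a stricter filter on low counts tested the same 8367 genes, so they give no information on stability.

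With the replicate number as a block, 2 LacZ calls (2 and 0), 0 wild-type calls, 0 shared calls and 0 differences remained. As deviations from group means, same-numbered libraries had correlations of -0.202, -0.0673, -0.151 and -0.066, and each cerebellar library correlated better with another number. With 2 cerebellar libraries per group, their deviations mirror each other, so these values are not independent. A negative value also makes a better correlation with another number follow. This check can therefore not decide whether libraries of a number were paired.

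Over 22 other settings or fewer per gene, the 24 called genes gave 527 values, all in the same direction, of which 342 passed the threshold. Sign changes occurred among uncalled genes only. Under quantile normalization Csf1r was at 0.0234 and C1qb at 0.0242, after the GC correction Apoe was at -0.00115, and Itga4 and Cxcr2 were at 0.34 and 0.44 with edgeR and at 0.35 and 0.45 with DESeq2. On leaving out each library, Csf1r ranged from -0.42 to 0.0363, Trem2 from -0.51 to 0.11, C1qa from -0.39 to 0.0896, C1qb from -0.43 to 0.0566, H2-K1 from -0.0331 to 0.37, B2m from -0.0278 to 0.29, Itga4 from -1.47 to 1.13 and Cxcr2 from -1.56 to 1.27, with the extremes at the 2 LacZ cerebellar libraries. The depth of those libraries (508182 and 539339 reads) limits genes with few reads such as Pde2a.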

Other observations

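A group of genes separated the 2 LacZ cerebellar libraries from each other. Itga4, an integrin chain of leukocyte adhesion, was at 62.9 CPM in replicate 1 and 397 CPM in replicate 2, and between 146 and 307 CPM in the other 8 libraries of the line. Cxcr2, a chemokine receptor known from neutrophils, was at 32.4 and 248 CPM, and between 68.6 and 153 CPM elsewhere. Both replicates thus lay outside the range of the other libraries, on opposite sides. The regional log2 differences of the 2 genes were -0.16 and -0.14 (adjusted p = 0.961 and 0.97).

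Ttr, the thyroid hormone carrier made by choroid plexus epithelium, was chosen after its values were seen. It was at 493 and 418 CPM in LacZ cerebellum, 262, 506 and 97.0 CPM in LacZ forebrain, 3.35 and 6.0 CPM in wild-type cerebellum and 49.4, 1.25 and 124 CPM in wild-type forebrain. The LacZ cerebellar libraries were far above the wild-type cerebellar ones, while the regions overlapped in both genotypes. The summed level of the 3 choroid plexus markers tested, of 12 listed, was 617 to 749 CPM in LacZ cerebellum and 225 to 908 CPM in LacZ forebrain.

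Ccl2, a chemokine that attracts monocytes, was at 194 and 215 CPM in LacZ cerebellum and at 45.8, 94.1 and 137 CPM in LacZ forebrain (log2 difference 1.25, adjusted p = 0.296). Lag3, an inhibitory receptor of the immunoglobulin family, was at 255 and 114 CPM against 399, 384 and 370 CPM (-1.15, adjusted p = 0.0564). Thap11, a zinc finger transcription factor in the cerebellar table only, was at 72.4 and 65.8 CPM in LacZ and at 32.4 and 33.0 CPM in wild type. In the forebrain table only, the 5 genes with the highest LacZ mean were Fam73b, Decr1, Smim13, Gprasp2 and Suv39h1, with means of 34.9 to 45.7 CPM.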
